A study of Homo sapiens with 12 samples.

Results

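The subject is the baseline transcriptome of Huh7 cells given solvent only. Huh7 is an established human hepatocellular carcinoma cell line, a tumour of hepatocyte origin. The members are the 3 libraries whose columns the submitters named DMSO and labelled as control, chosen by that label out of 12 RNA sequencing libraries in 4 groups. The other 9 libraries, from cells given disulfiram, thalidomide or both, were not used here. All groups are the same cell line with no stated genetic change, and no label says that the 3 libraries are separate cultures, so every SD below is the spread between libraries, which may be technical. The sources used here give no exposure time, read depth or reliable library preparation. The labels' protocol text describes dissociated patient tissue and droplet single-cell capture, which does not match a cell line table with 1 column per sample, and it was not taken as the method of these libraries.

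Values are TPM, each gene's length-scaled share of all transcripts of a library, so levels can be compared between genes. Coordinates are hg38 from GENCODE 29. A gene is called expressed when it had at least 1 TPM in each of the 3 libraries, and listed at 0 when its value was 0 in all of them. Depth is unknown, so a value of 0 has no counting limit. Reads of near-identical or overlapping genes cannot be assigned with certainty, and whether reads were counted by strand is not known.

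Hepatocytes make most plasma proteins, clear ammonia through the urea cycle, make glucose and bile acids, and oxidise drugs with cytochrome P450 enzymes. A network of transcription factors around HNF4A, FOXA and CEBPA is known to hold this programme in place. Liver tumours often lose part of it and regain fetal genes such as AFP. Disulfiram blocks aldehyde dehydrogenases, and a copper complex of its metabolite targets NPLOC4, which hands ubiquitinated proteins to p97. CRBN encodes cereblon, the ubiquitin ligase receptor that thalidomide binds.

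Promoters are shown because CpG content and some motifs differed between genes of high, low and zero level, as described at the end. Each line gives the 120 bases before the start, 5′ to 3′ on the gene's strand (first start listed by RefSeq, GRCh38.p14). Capitals mark every match, on either strand, to TATAAA (the TATA box), GTTAAT (a motif of liver promoters), CCAAT (the CCAAT box) or GGGCGG (the GC box). ALB, AFP and APOA2 are expressed liver genes, SLC10A1 and CYP3A4 are adult liver genes that were silent or nearly so, and CRBN is the thalidomide target.
ALB: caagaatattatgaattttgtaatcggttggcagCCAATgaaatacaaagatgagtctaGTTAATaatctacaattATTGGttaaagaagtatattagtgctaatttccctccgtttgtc
AFP: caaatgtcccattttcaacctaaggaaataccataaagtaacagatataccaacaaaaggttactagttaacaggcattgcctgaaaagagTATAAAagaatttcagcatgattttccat
APOA2: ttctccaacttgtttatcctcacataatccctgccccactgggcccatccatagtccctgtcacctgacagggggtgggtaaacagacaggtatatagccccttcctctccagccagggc
SLC10A1: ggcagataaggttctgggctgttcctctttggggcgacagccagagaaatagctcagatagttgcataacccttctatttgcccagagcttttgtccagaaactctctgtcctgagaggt
CYP3A4: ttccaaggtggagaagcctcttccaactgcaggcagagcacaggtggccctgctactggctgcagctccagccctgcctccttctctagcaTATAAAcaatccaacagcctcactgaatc
CRBN: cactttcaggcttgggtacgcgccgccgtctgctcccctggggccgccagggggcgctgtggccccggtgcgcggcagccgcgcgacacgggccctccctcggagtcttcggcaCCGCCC
The windows lie at chr4:73404167-73404286 for ALB, chr4:73436101-73436220 for AFP and chr1:161223629-161223748 for APOA2. Those of the others are chr14:69797242-69797361 for SLC10A1, chr7:99784185-99784304 for CYP3A4 and chr3:3179718-3179837 for CRBN. ALB and AFP are read from the plus strand and the other 4 from the minus strand. The ALB window held GTTAAT at position -61 and CCAAT at -86 and, on the opposite strand, at -44, counted back from the start. AFP and CYP3A4 each held TATAAA at position -29, although AFP averaged 240 TPM and CYP3A4 0.05 TPM. None of the 4 motifs was in the windows of APOA2 and SLC10A1, which says only that these letters are not there.

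Most of the annotated genome was silent and a small set of genes held most of the transcripts. Of 59191 listed features, 12986 were expressed and 33443 were listed at 0. Of 19945 protein-coding genes, 11502 (57.7%) were expressed, 3551 (17.8%) were listed at 0, and the median level over all of them was 2.98 TPM. Single libraries had 13909, 14097 and 13693 features at 1 TPM or more. The 154 genes above 1000 TPM held 47.6% of the TPM total, and the 100 most abundant held 40.7% ± 0.139 (SD, n = 3). A further 1186 genes lay between 100 and 1000 TPM and held 30.4%.

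The most abundant transcripts served energy production, translation and iron storage. The 13 protein-coding genes of the mitochondrial genome held 10.7% ± 0.312 of the TPM total, and the ribosomal protein genes 20.9% ± 0.345 (SD, n = 3 each). MT-ATP8, a subunit of ATP synthase, led with 22847, 24419 and 28084 TPM in controls 1, 2 and 3. Its reading frame overlaps that of MT-ATP6, which averaged 7903 TPM, so reads between them cannot be assigned with certainty. FTL, the ferritin light chain that stores iron, stood at rank 4 with 11298, 10921 and 11689 TPM. Both were highest in control 3. The other nuclear genes among the 10 most abundant were RPL41 (10066 ± 140 TPM), GAPDH (9869 ± 1073 TPM) and the actin-binding TMSB10 (7856 ± 323 TPM; SD, n = 3). KRT8 and KRT18, the keratin pair of simple epithelia, stood at ranks 24 and 48 with 4790.3 ± 115 and 2976 ± 136 TPM.

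**Figure D1:**
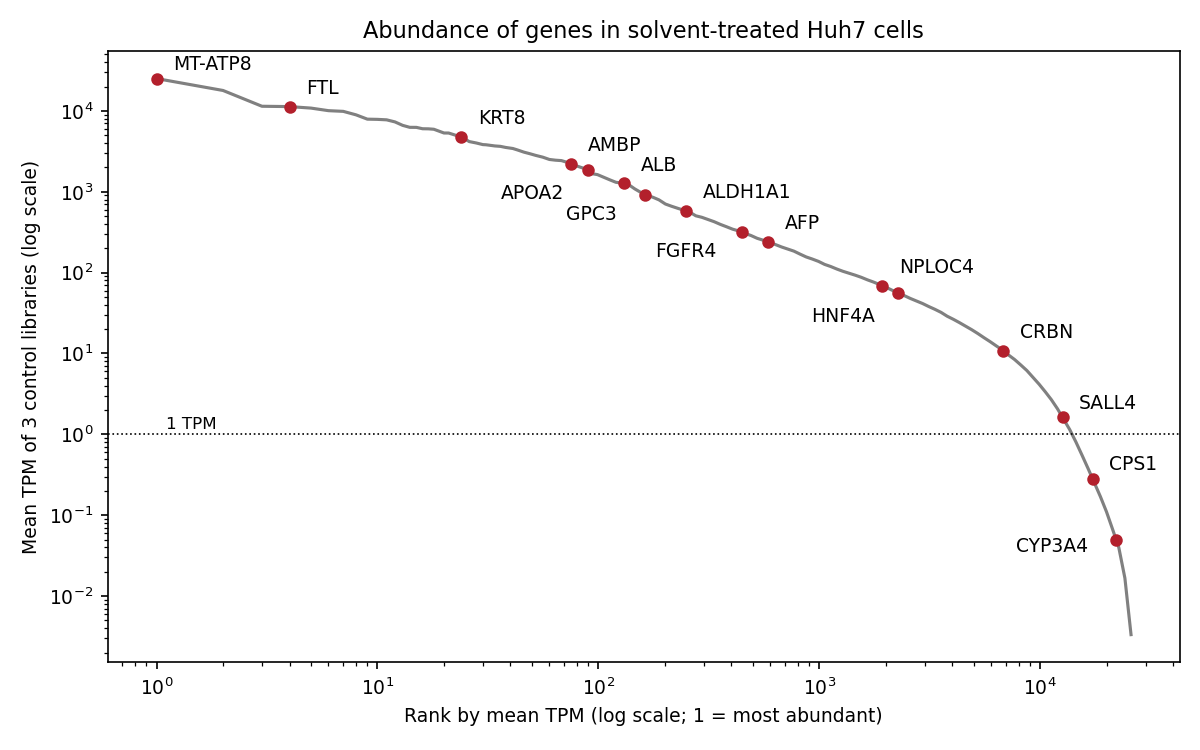
Mean TPM of 3 control libraries (log scale, vertical) against rank by mean TPM (log scale, horizontal) for all genes above 0, with named genes as red points. ALB stood at rank 131 and AFP at 584, NPLOC4 at 1923 and CRBN at 6816, while CPS1 and CYP3A4 lay below 1 TPM.

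The liver markers were all abundant. ALB (albumin, chromosome 4, 73397114 to 73421412) had 1472, 1312 and 1046 TPM in controls 1, 2 and 3, a mean of 1277 ± 215 TPM. APOA2, an apolipoprotein of high-density lipoprotein (chromosome 1, 161222292 to 161223631), had 2157, 1688 and 1711 TPM. AFP (alpha-fetoprotein, chromosome 4, 73431138 to 73456174) had 310.4, 235.9 and 172.7 TPM. All 3 were highest in control 1. The genes did not overlap: APOA2 was above ALB in each library (ratio 1.46 ± 0.174), and ALB above AFP (5.46 ± 0.665; SD, n = 3). With 3 libraries an exact paired test cannot give a two-sided p below 0.25, so none was run.

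Among 42 genes listed as secreted hepatocyte proteins, 32 (76.2%) were expressed, against 57.7% of all protein-coding genes. Their median level was 56.8 TPM, against 2.98 TPM for all protein-coding genes. The list also holds A1CF, an RNA-binding cofactor of APOB editing that is not secreted. AMBP, the precursor of alpha-1-microglobulin and bikunin, was the highest with 2752, 1994 and 1945 TPM. APOA2 followed at 1852 ± 264 TPM, below AMBP in each library, although the ranges of these 2 genes overlapped. The next 5 genes, transferrin TF (1310 ± 560), APOE (1288 ± 101), the retinol carrier RBP4 (1287 ± 41.4), complement C3 (1284 ± 241) and ALB, could not be ordered, since their libraries overlapped. Fibrinogen chains FGA, FGB and FGG averaged 258, 213 and 107 TPM.

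The secretory programme had gaps. The acute phase protein gene CRP and the clotting factor gene F9 were listed at 0 in all 3 libraries. Plasminogen (PLG) had 0.11, 0.18 and 0.27 TPM and antithrombin (SERPINC1) had 0.25, 0.18 and 0.1 TPM. The inter-alpha-inhibitor gene ITIH2 averaged 42.9 ± 21.3 TPM, while its relatives ITIH1 (0.357 TPM) and ITIH3 (0.197 TPM) stayed below 1 TPM in every library. APOA1, in adult liver one of the most abundant transcripts, had 65.3, 35.1 and 26.4 TPM, below APOA2 in each library.

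**Figure D2:**
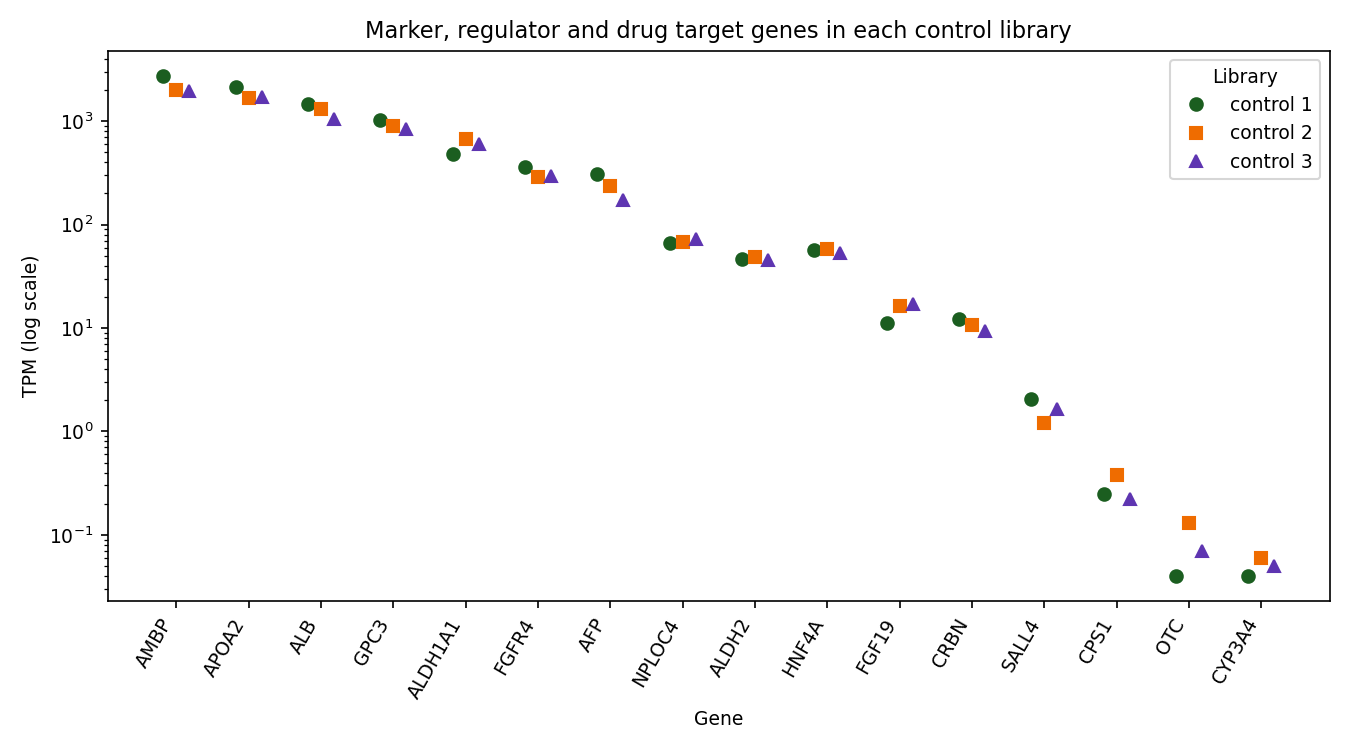
TPM (log scale) of 16 genes in control 1 (circles), control 2 (squares) and control 3 (triangles). APOA2, ALB and AFP were highest in control 1, while ALDH1A1 and FGF19 were lowest there.

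Transcription factors of hepatocytes were mostly expressed. Of 28 listed, 25 were expressed (89.3%, against 57.7% of all protein-coding genes), with a median of 18.6 TPM. CEBPA, which drives hepatocyte differentiation and restrains growth, was the highest at 231, 187 and 208 TPM. HNF4A, the nuclear receptor at the centre of the network, had 57.0, 58.4 and 53.2 TPM. FOXA3 (54.5, 45.6 and 43.5 TPM) and FOXA2 (49.9, 42.0 and 47.7 TPM), pioneer factors that open liver chromatin, overlapped with each other. GATA4, a factor of early endoderm, averaged 59.2 TPM. The nuclear receptors were uneven: the oxysterol receptor NR1H3 averaged 65.1 TPM and the xenobiotic sensor NR1I2 0.0367 TPM.

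Metabolic enzymes of mature hepatocytes were largely low. Of 36 listed, 15 (41.7%) were expressed, against 57.7% of all protein-coding genes, with a list median of 0.838 TPM. In all 3 libraries 18 of the 36 stayed below 1 TPM, as did 7622 of all 19945 protein-coding genes. HGD and FAH, which break down tyrosine, averaged 113 and 32.7 TPM. In the urea cycle, ASS1 (117 ± 3.31 TPM) and ASL (53.8 TPM) were expressed, whereas CPS1, the mitochondrial entry enzyme, had 0.25, 0.38 and 0.22 TPM. OTC, the next step, had 0.04, 0.13 and 0.07 TPM, and ARG1, the last step, had 4.62, 2.24 and 0.51 TPM. In gluconeogenesis, mitochondrial PCK2 averaged 62.7 TPM and cytosolic PCK1 had 0.32, 0.02 and 0.02 TPM. G6PC, which releases free glucose, had 0.18, 0.07 and 0 TPM. GLUL, glutamine synthetase and a target of beta-catenin in liver, was the highest of the list at 216, 167 and 175 TPM. ADH1A, ADH1B and GYS2 were listed at 0.

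Cytochrome P450 and bile acid genes were mostly low. Of 20 genes in that list, 7 (35.0%) were expressed and 12 stayed below 1 TPM in every library. Over all 19945 protein-coding genes, 57.7% were expressed and 7622 stayed below 1 TPM. POR, the electron donor of microsomal P450 enzymes, averaged 128 ± 2.75 TPM, followed by the sterol demethylase CYP51A1 at 42.3 TPM. CYP27A1, of the acidic bile acid pathway, averaged 21.8 TPM, and the ethanol oxidase CYP2E1 had 0.47, 0.03 and 0.17 TPM. CYP3A4, the main drug oxidase of adult liver, had 0.04, 0.06 and 0.05 TPM, and its fetal relative CYP3A7 0.09, 0.09 and 0.13 TPM. Both lie so low that rounding to 0.01 TPM makes them coarse, and no ratio was taken. CYP7A1, the rate-limiting enzyme of bile acid synthesis, was listed at 0. CYP2B6, by contrast, had 7.85, 11.7 and 10.8 TPM and CYP1A1 had 7.9, 16.9 and 15.2 TPM.

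Of 25 uptake and export genes, 14 (56.0%) were expressed, close to the 57.7% of all protein-coding genes. ASGR2 (199 ± 30.8 TPM) and ASGR1 (102 TPM), which clear desialylated glycoproteins, were expressed, as was SCARB1 (156 TPM), which takes up lipoprotein lipids. SLC10A1, the bile acid importer and entry receptor of hepatitis B virus, was listed at 0. The anion carriers SLCO1B1 and SLCO1B3 reached at most 0.05 and 0.11 TPM in any library, whereas their relative SLCO2B1 had 21.8, 20.8 and 20.5 TPM. The export pump ABCC2 averaged 7.24 TPM, while ABCB11, the bile salt export pump, had 0.03, 0.06 and 0.05 TPM. For glucose, SLC2A1 (GLUT1) had 43.6, 42.0 and 25.5 TPM, and SLC2A2, the GLUT2 of adult hepatocytes, 0.07, 0 and 0.04 TPM.

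**Figure D3:**
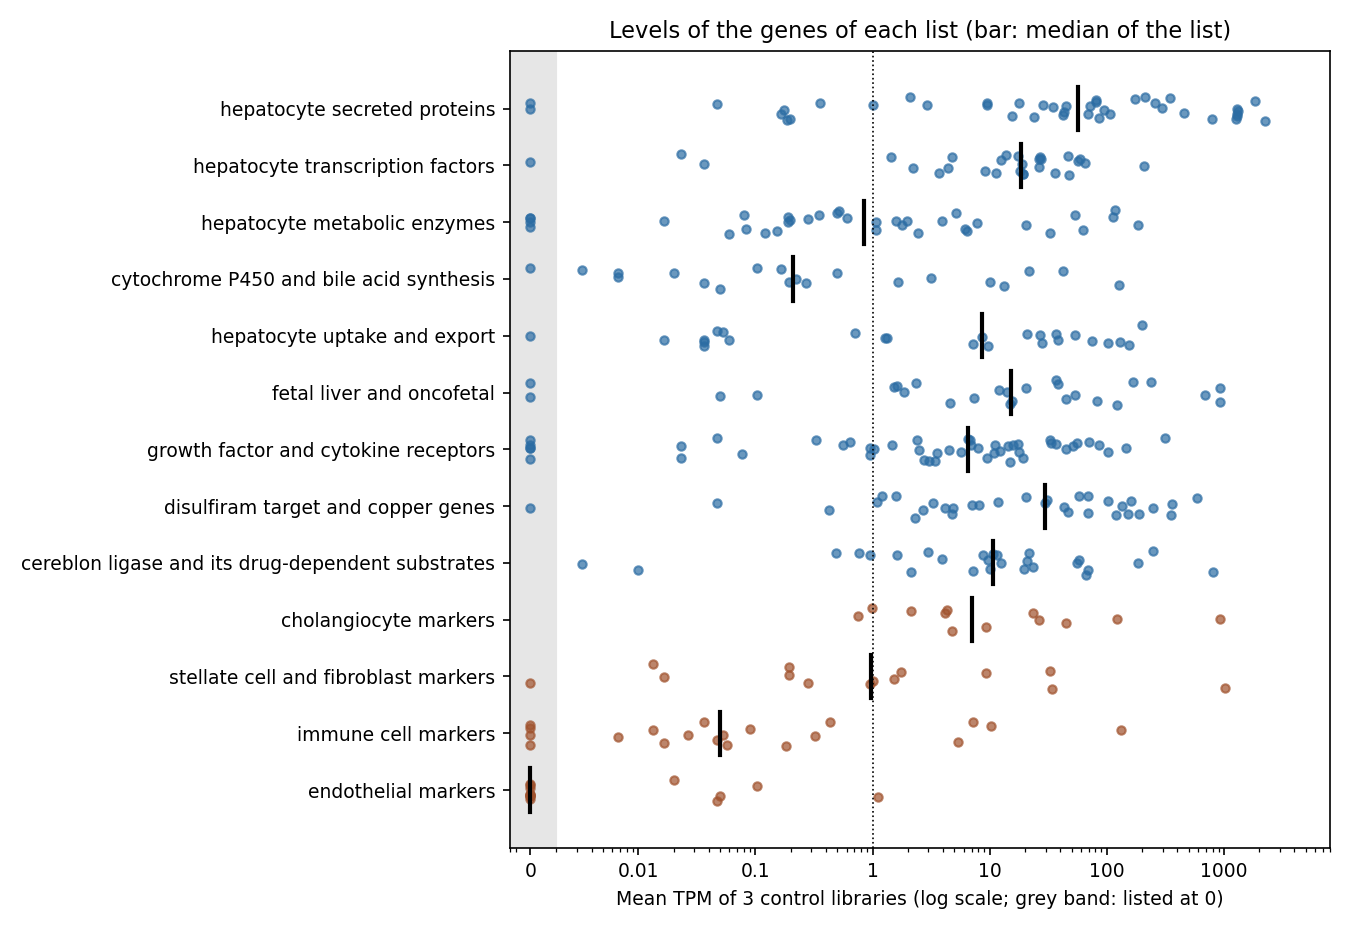
Mean TPM of 3 control libraries (log scale, horizontal) for every matched gene of 13 lists, with a black bar at each list's median and a grey band for genes listed at 0. Blue lists are liver, fetal, receptor and drug target genes and brown lists are markers of other cells. Secreted proteins centred on 56.8 TPM, metabolic enzymes on 0.838 TPM and endothelial markers on 0.

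Fetal and oncofetal genes were mostly on. Of 26 listed, 21 (80.8%) were expressed, against 57.7% of all protein-coding genes, with a median of 15.1 TPM. CD24, a surface glycoprotein, averaged 687 TPM and the imprinted PEG10 167 TPM. GPC3, a cell surface proteoglycan of fetal liver and hepatocellular carcinoma (chromosome X, 133535745 to 133985895), had 1035, 897 and 839 TPM, above AFP in every library. KRT19, a keratin of bile ducts and liver progenitors, had 949, 977 and 833 TPM, and EPCAM, an adhesion protein of the same cells, averaged 121 TPM. The imprinted growth factor gene IGF2 averaged 53.2 ± 16.4 TPM and its neighbour H19 20.4 ± 6.05 TPM. Fetal RNA-binding proteins were present, with IGF2BP1 at 36.8 TPM, IGF2BP3 at 14.1 TPM and LIN28B at 14.8 TPM. IGF2BP3 stood below IGF2BP1 in every library (ratio 0.386 ± 0.0782). DLK1, a surface protein of fetal hepatoblasts, was listed at 0, as was HBG2. HBG1, a near-identical copy of HBG2, had 1.48, 1.57 and 1.55 TPM, and reads between the copies cannot be assigned with certainty.

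FGFR4 and FGFR3 led the list of growth factor and cytokine receptors, of which 34 of 49 genes (69.4%) were expressed, against 57.7% of all protein-coding genes. FGFR4, the receptor for FGF19 in hepatocytes (chromosome 5, 177086886 to 177098144), had 360, 288 and 295 TPM. FGFR3 had 170, 137 and 131 TPM, and FGFR1 14.9, 10.4 and 11.4 TPM, so FGFR4 exceeded FGFR1 25.9 ± 1.76 times. The co-receptor KLB averaged 14.9 ± 2.73 TPM. FGF19, the ligand, which is normally an ileal hormone, had 11.3, 16.3 and 17.0 TPM. Among the other receptors, ERBB3 averaged 69.9 TPM, EGFR 33.5 ± 4.43 TPM and MET, the receptor of hepatocyte growth factor, 9.46 ± 1.07 TPM. KDR, FLT4, KIT and RET, kinases targeted by antiangiogenic drugs used in liver cancer, were listed at 0. Among ligands, 19 of 28 genes (67.9%) were expressed, against the same 57.7%. The heparin-binding growth factor gene MDK was the highest at 1276 ± 200 TPM, followed by the Notch ligand JAG1 at 179 TPM. VEGFA averaged 84.4 TPM, BMP4 76.7 TPM, and HGF and WNT5A were listed at 0.

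Of 19 matched genes of virus entry and nucleic acid sensing, 10 (52.6%) were expressed, near the 57.7% of all protein-coding genes. They include entry factors of hepatitis C virus, for which Huh7 is a common host. CLDN1 had 293, 279 and 265 TPM, CD81 averaged 225 TPM and OCLN 15.0 TPM, beside SCARB1 above. Sensors of viral RNA were low. IFIH1, which encodes MDA5, had 1.55, 2.35 and 1.47 TPM. DDX58, which encodes RIG-I, had 0.49, 0.62 and 0.5 TPM and TLR3 had 0.15, 0.08 and 0.25 TPM, whereas their adaptors MAVS and TICAM1 averaged 26.0 and 10.5 TPM. The DNA sensor adaptor STING, listed as TMEM173, had 0.71, 0.35 and 0.1 TPM. IFNB1 and IFNL1 were listed at 0.

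Of 42 tumour genes, 37 (88.1%) were expressed, against 57.7% of all protein-coding genes. CDK4, the kinase of G1 phase, was the highest at 305 ± 16.7 TPM, followed by CTNNB1 (beta-catenin) at 153 TPM. CDKN2A, which restrains CDK4, had 67.6, 76.7 and 87.7 TPM. TERT, the catalytic part of telomerase and usually silent in adult hepatocytes, had 3.1, 3.56 and 3.26 TPM. MYC had 11.5, 24.1 and 24.96 TPM and MYCN, its relative, 19.3, 13.6 and 11.8 TPM. MYC was lower than MYCN in control 1 and higher in controls 2 and 3, so the pair could not be ordered. The beta-catenin target NKD1 reached at most 0.09 TPM and CD274, the PD-L1 gene, 0.1 TPM.

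Disulfiram targets and copper genes were mostly expressed. Of 33 genes of that list, 29 (87.9%) were expressed, against 57.7% of all protein-coding genes, with a median of 29.5 TPM. ALDH1A1, a cytosolic retinal dehydrogenase (chromosome 9, 72900662 to 73080442), had 481, 666 and 605 TPM. ALDH2, which oxidises acetaldehyde in mitochondria (chromosome 12, 111766887 to 111817529), had 46.8, 48.3 and 45.9 TPM. ALDH1A1 was above ALDH2 in each library, by 12.4 ± 1.87 times. NPLOC4 (chromosome 17, 81556887 to 81648465) had 65.7, 68.7 and 73.2 TPM. Its partners in the p97 complex were higher, VCP, which is p97 itself, at 249 ± 10.3 TPM and UFD1 at 146, 149 and 161 TPM. VCP exceeded NPLOC4 by 3.61 ± 0.192 times. The copper chaperones ATOX1 and CCS averaged 361 ± 12.8 TPM and 162 ± 0.304 TPM, and the copper importer SLC31A1 29.5 TPM. The exporter ATP7B, the liver form, averaged 11.8 TPM, while ATP7A had 0.49, 0.52 and 0.27 TPM. The metallothioneins MT2A and MT1X, which bind copper and zinc, had 285, 385 and 391 TPM and, for MT1X, 129.8, 207 and 229 TPM, both lowest in control 1. ALDH1A3 was listed at 0, and DBH, another enzyme that disulfiram inhibits, reached at most 0.09 TPM.

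Of 27 genes of the cereblon ligase and its substrates, 22 (81.5%) were expressed, against 57.7% of all protein-coding genes. CRBN (chromosome 3, 3144628 to 3179727) had 12.2, 10.7 and 9.37 TPM, a mean of 10.8 ± 1.43 TPM, below the median of expressed protein-coding genes (13.8 TPM). NPLOC4 exceeded CRBN by 6.53 ± 1.22 times and DDB1, the adaptor that holds CRBN in the ligase, by 23.3 ± 2.61 times, with no overlap of libraries. The other subunits were CUL4A at 19.7 ± 1.70 TPM, CUL4B at 9.97 TPM and RBX1 at 69.2 ± 5.24 TPM. Of the substrates that thalidomide-class drugs recruit, the lymphoid factors IKZF1 and IKZF3 reached at most 0.03 and 0.01 TPM in any library. SALL4, the substrate tied to limb defects, had 2.04, 1.21 and 1.64 TPM, and ZFP91 averaged 9.75 ± 0.508 TPM. CSNK1A1, a casein kinase degraded with lenalidomide, averaged 55.7 ± 6.39 TPM. BSG, a membrane protein that needs CRBN for its maturation, was the highest of the list at 804 ± 12.1 TPM. GSPT1, a translation termination factor degraded with newer cereblon ligands, had 61.8, 65.3 and 70.6 TPM, and the zinc finger gene WIZ 23.5, 23.6 and 23.6 TPM.

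Of the other cell types, 0 of 14 endothelial and 0 of 7 erythroid markers reached 1 TPM in all 3 libraries. Over all 19945 protein-coding genes, 57.7% were expressed, 17.8% were listed at 0 and 7622 stayed below 1 TPM in every library. The endothelial adhesion gene PECAM1 had 1.23, 1.41 and 0.69 TPM, and the other 13 endothelial and all 7 erythroid markers were below 1 TPM in every library. In bulk RNA a small share of cells and little RNA per cell cannot be told apart. Of 20 immune markers, 16 were below 1 TPM in all 3 libraries, and the pan-leukocyte gene PTPRC had 0, 0.16 and 0 TPM. The 4 that were expressed were CD14 (169, 99.1 and 127 TPM), which hepatocytes also make, CD68 (5.08, 13.8 and 11.7 TPM), LYZ (4.76, 5.12 and 6.14 TPM) and CD3D. CD3D averaged 7.17 TPM, and 4.63 TPM without control 2. The list summed to 185, 132 and 151 TPM in controls 1, 2 and 3, most of it CD14. Of the 14 endothelial markers, 9 were listed at 0, including KDR and TEK. Of 14 stellate and fibroblast markers, 5 (35.7%) were expressed, led by VIM (1017 ± 114 TPM), with LUM at 34.3 ± 1.94 TPM and COL1A2 at 32.8 TPM. COL3A1 and DCN of that list reached at most 0.25 and 0.04 TPM. Of 12 cholangiocyte markers, 10 (83.3%) were expressed, although KRT7 had 0.22, 0.96 and 1.76 TPM. All 20 housekeeping genes were expressed, the lowest being TBP at 16.6 TPM.

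Across the 12986 expressed genes, Pearson's r of log2(TPM + 1) between pairs of libraries was 0.989 to 0.991, a description over genes that share each library. The median CV was 16.5% for genes of mean 1 to 10 TPM and 4.91% for those above 1000 TPM. Among 7045 genes with a mean of at least 10 TPM, 143 (2.03%) had a highest library at least 2 times the lowest. That count was 85, 83 and 93 without control 1, 2 or 3, with fewer libraries compared. The steadiest protein-coding genes were CENPM (42.7 TPM in each library), CFAP20 and UROS. SHQ1, an assembly factor of small nucleolar ribonucleoproteins, had the highest CV among protein-coding genes of mean at least 10 TPM, with 37.6, 6.16 and 4.46 TPM. Its mean was 16.1 TPM, and 5.31 TPM without control 1. LUZP6, whose reading frame is shared with the MTPN transcript, had 0, 85.2 and 50.4 TPM. Of the 143 genes, 80 were protein-coding.

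Most expressed secreted hepatocyte proteins were highest in control 1. Of 32 expressed members, 28 (87.5%) were highest there, against 34.2% of all 12986 expressed genes. Their median log2 ratio of control 1 to the mean of controls 2 and 3 was 0.47, against -0.02 for all expressed genes. Transferrin had 1937, 1130 and 861 TPM and the protease inhibitor SERPINA1 had 454, 244 and 194 TPM. HAMP, the gene of the iron hormone hepcidin, had 146, 61.7 and 34.2 TPM, and AHSG, which encodes fetuin-A, 51.5, 19.4 and 14.5 TPM. Their means without control 1 were 48.0 TPM for HAMP, against 80.6 TPM with it, and 16.9 TPM for AHSG, against 28.5 TPM. RBP4 was nearly flat (1327, 1290 and 1244 TPM), and SAA4 and LEAP2 were lower in control 1 than the mean of the others. Expressed transcription factors of hepatocytes had a median log2 ratio of 0.09, and 13 of 25 were highest in control 1. The excess was not limited to these lists. Highest in control 1 were 8 of 14 uptake and export genes (57.1%), 18 of 34 receptors (52.9%) and 10 of 19 ligands (52.6%). Of 15 expressed metabolic enzymes, 6 were highest and 7 lowest there, and of 29 disulfiram target and copper genes 11 and 12. Of 20 housekeeping genes, 8 were highest there, and of 37 expressed tumour genes 8 were highest and 16 lowest. Over all expressed genes, 34.2% were highest and 37.3% lowest in control 1. Markers of other cells were mixed. Of 5 expressed stellate and fibroblast markers, 4 were highest in control 1, and that list summed to 1182, 1155 and 961 TPM. Most of that sum was VIM (1094, 1071 and 887 TPM), which is also in the list of keratins and epithelial adhesion. Of 4 expressed immune markers, 1 was highest and 3 were lowest there, and of 10 cholangiocyte markers 4 were highest and 4 lowest. The part of other cells in the difference was not tested.

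**Figure D4:**
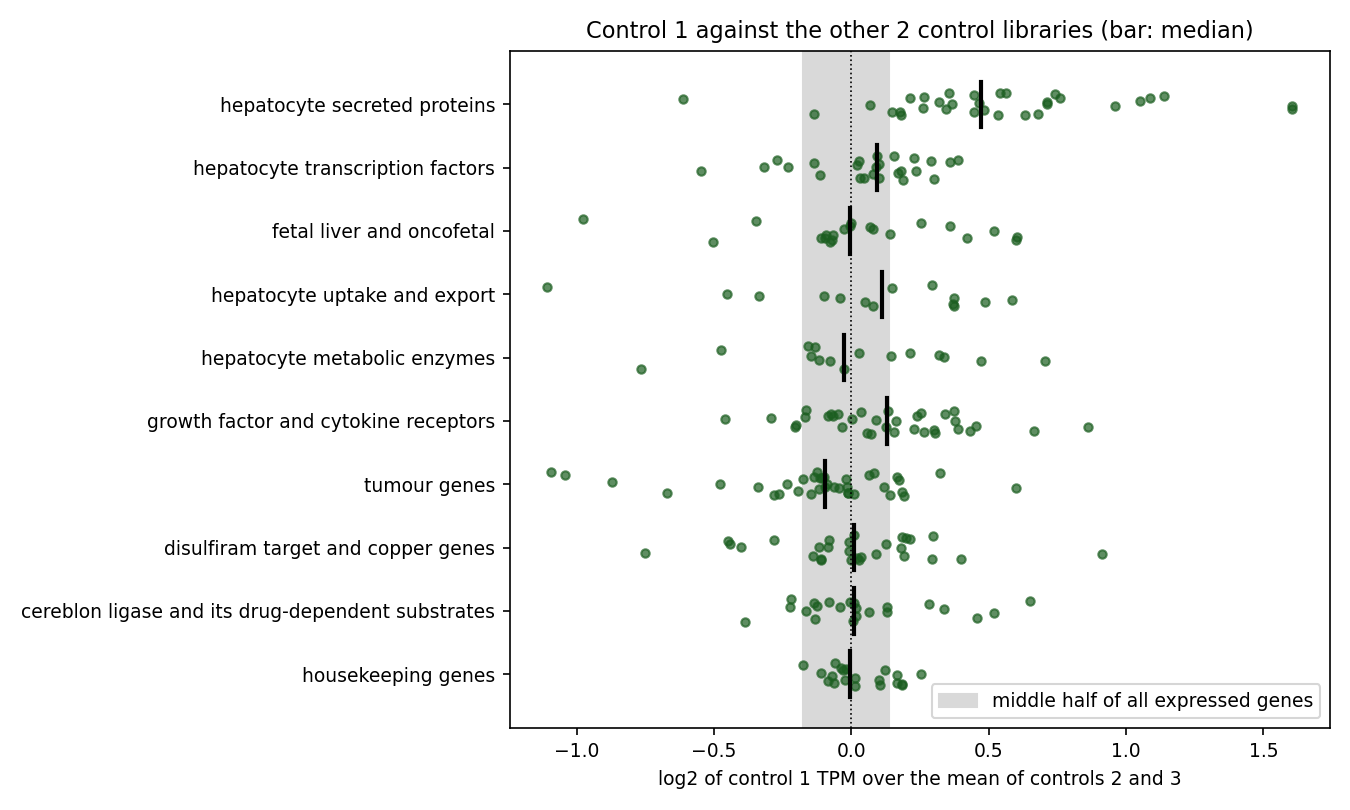
Log2 ratio of control 1 TPM to the mean of controls 2 and 3 for expressed genes of 10 lists, with a bar at each median and a grey band from the lower to the upper quartile of all expressed genes. Secreted hepatocyte proteins had a median of 0.47 and lay mostly right of the band.

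CpG content was higher in promoters of expressed genes. Of the protein-coding genes, 15323 were matched by symbol to a RefSeq promoter, and the 250 bases before the start were read. The median ratio of observed to expected CpG was 0.278 for 2526 genes listed at 0, and 0.840 for 4487 expressed genes of mean 10 to 100 TPM. The GC box motif GGGCGG was in 27.4% of promoters of genes listed at 0, in 71.1% of those at 10 to 100 TPM and in 56.7% of all. TATAAA was in 21.1% of promoters of genes listed at 0, in 3.86% of those at 10 to 100 TPM, in 8.28% of those at 100 to 1000 TPM and in 10.4% of the 106 above 1000 TPM. In the same order of classes, GTTAAT was in 9.50%, 3.16%, 2.31% and 1.89%. CCAAT differed less, at 34.7%, 35.6%, 41.2% and 34.0%. For expressed secreted liver proteins, 25 had a promoter and the median CpG ratio was 0.213. The motif GTTAAT was in 7 of 25 (28.0%), against 4.91% of all promoters, and CCAAT in 12 (48.0%), against 34.8% of all. GTTAAT was not limited to expressed liver genes. It was in 3 of 13 (23.1%) metabolic enzymes below 1 TPM in every library, but in 0 of 7 secreted proteins below 1 TPM. TATAAA was in 4 of the 25 (16.0%) and in 6 of the 13 metabolic enzymes below 1 TPM (46.2%), against 9.19% of all. ALB is 1 of the genes that hold both GTTAAT and CCAAT. CRBN had a CpG ratio of 0.821 and a GC content of 71.2%, against 0.545 and 30.0% for ALB. The classes also differed in base composition. Median GC content was 50.8% for genes listed at 0, 65.6% at 10 to 100 TPM and 62.4% for all. It was 52.0% for the 25 secreted proteins and 40.0% for the 13 metabolic enzymes. The part of GC content in the motif shares was not tested. Genes are not independent replicates and no test was made.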

How the data were processed

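RNA sequencing values of 12 Huh7 libraries were deposited as 1 table, of which the 3 control columns were used. The authors deposited TPM per gene, with HISAT2 2.0, StringTie 1.3.0 and build hg38 named per the submitters' processing notes. Annotation and filters were not stated in the sources used. Values are rounded to 2 decimals and each column sums to the same total, which leaves read depth unknown, and counting error was not estimated. A few abundant transcripts shift all others.

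From these values the mean, SD, CV and rank over 3 libraries were computed (Python 3.11.15, pandas 2.3.3). Symbols and coordinates came from GENCODE 29, which holds 58611 of 58884 Ensembl identifiers; 307 other features are assembled loci. A total of 21 gene lists with 516 genes (514 matched) was used. The members and lists were chosen with earlier results of these data known. Named genes are the 5 given markers, the 20 most abundant genes, up to 8 highest and 6 silent members per list, the 8 most and 8 least variable protein-coding genes, the genes of 18 pairs and the 6 highest long noncoding RNAs. The text also names, chosen after their values were seen, A1CF, APOA1, APOB, FGA, FGB, FGG, CRP, ITIH2, SERPINA1, SAA4, LEAP2, ARG1, ADH1A, ADH1B, CYP7A1, H19, LIN28B, HBG1, KLB, EGFR, MET, WNT5A, SLCO2B1, IFIH1, IFNB1, IFNL1, TERT, SLC31A1, ATP7B, CUL4A, CUL4B, SALL4, ZFP91, KRT7, TBP, TWIST1, MALAT1 and NEAT1. Some genes that the rule covers are not reported here. Ratios within a library were taken where the lower gene had at least 0.1 TPM, a limit set after the values were seen. No groups were compared, so no statistical test was run.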

Additional observations from a re-analysis of the deposited data

How the results depend on the processing

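Counts of expressed genes, the share of the most abundant genes, marker levels, gene pairs, the 2-fold count and the control 1 count were recomputed under other settings. Class shares, correlations, CVs and promoter values were not. The number of expressed list members in 8 cases moved past 1.5 times with a threshold of 0.5 or 5 TPM or without control 3, for lists such as HOX genes (7 at 5 TPM, against 15). The count of expressed genes was 12986, and 13170 to 13369 with any 1 control library left out. It depended more on the threshold, with 14438 at 0.5 TPM and 8802 at 5 TPM. Rescaling to nuclear protein-coding genes removes mitochondrial genes and all features that are not protein-coding. Nuclear protein-coding genes held 85.1%, 85.4% and 84.7% of TPM in controls 1, 2 and 3, so their levels all rise by construction. Ratios between them within a library do not change. This moved 4 of 5 marker levels by more than 1 SD: ALB to 1500.4 TPM, APOA2 to 2177 TPM, CRBN to 12.7 TPM and NPLOC4 to 81.3 TPM. AFP moved to 282 TPM, within 1 SD. The share of the 100 most abundant genes became 37.0%. The count of genes at least 2-fold apart was 258 of 9313 with a mean of at least 5 TPM, 20 of 2501 with at least 50 TPM and 80 of 6748 among protein-coding genes, and 83 to 93 without any 1 library. Each of these compares other numbers of genes or libraries by construction. With settings chosen after seeing the data, 28 of 32 secreted proteins were highest in control 1 under median-of-ratios scaling and under nuclear rescaling. Of all expressed genes, 34.4% and 34.2% were highest there. Without control 2 the count was 30, against 52.4% of all expressed genes, and without control 3 it was 28, against 44.7%. With fewer libraries compared, the shares over all genes rise by construction. No paired analysis was possible because only 1 group was described and no result comes from a test. The unknown depth leaves values below about 0.1 TPM coarse.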

Other observations

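Of 39 HOX genes, which set position along the body axis, 15 (38.5%) were expressed, against 57.7% of all protein-coding genes. HOXC10 led with 52.3, 41.7 and 35.8 TPM, and HOXC13 had 8.85, 7.78 and 8.36 TPM. All HOXD genes listed stayed below 1 TPM in every library. Of 16 matched cancer testis antigens, genes normally kept to the germ line, 3 (18.8%) were expressed and 8 were listed at 0. Over all protein-coding genes these shares were 57.7% and 17.8%. PRAME had 37.3, 40.4 and 37.7 TPM, and MAGEA6 12.5, 13.5 and 12.3 TPM. MAGEA3, at 2.01, 3.31 and 3.16 TPM, is a near-identical copy of MAGEA6, and reads between them cannot be assigned with certainty.

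Epithelial and mesenchymal genes were found side by side. CDH1, the epithelial cadherin, averaged 108 TPM and CDH2, the neural cadherin that hepatocytes also carry, 19.02 TPM, with CDH1 higher in 3 of 3 libraries. VIM and FN1 averaged 1017 and 929 TPM, whereas the transcription factors of epithelial-mesenchymal transition ZEB1, ZEB2 and SNAI2 reached at most 0.21, 0.11 and 0.1 TPM and TWIST1 was listed at 0. Among long noncoding RNAs, LRRC75A-AS1 (987 ± 42.3 TPM), SNHG5 (456 ± 43.2 TPM) and DANCR (371 ± 24.3 TPM) were the highest with a plain symbol (SD, n = 3). The nuclear MALAT1 and NEAT1 averaged 32.0 and 34.6 TPM. The signal recognition particle RNA genes RN7SL1, RN7SL2 and RN7SL3 together held 0.206%, 0.128% and 0.320% of the TPM total in controls 1, 2 and 3. The mitochondrial rRNA genes, also a small class, held 0.451%, 0.382% and 0.309%. The protein-coding share was 95.7% to 95.9%, and a class that large can vary little in relative terms.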
